A study of Rattus norvegicus with 7 samples.

Results

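The peaks of the retinoid X receptor RXRG were set against those of TEAD1 in S16, a rat Schwann cell line. All peaks of both lists were taken apart from those on the mitochondrial genome, which left 47935 RXRG and 26404 TEAD1 peaks, together 74339 of the 283804 peaks in the 6 lists of the series. Both lists came from CUT&RUN, in which an antibody brings micrococcal nuclease to a protein so that the DNA it occupies is cut free, on untreated S16 cultures. CUT&RUN lists for NR2F2 (41812 peaks) and YY1 (38704 peaks) and a ChIP-seq list for acetylated histone H3 lysine 27 (H3K27ac, 99514 peaks) from the same line served to describe the surroundings, as did SREBP1 ChIP-seq of wild type sciatic nerve at postnatal day 15. Each target had 1 library and S16 is a single cell line, so no difference below has a replicate check, no p-value is given, and the 95% intervals cover counting error only and treat peaks as independent. The depth of the libraries is unknown and no control library for CUT&RUN was analysed, so background calls cannot be told apart from occupied sites.

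RXRG is a nuclear receptor that binds DNA mostly as a heterodimer with other nuclear receptors. TEAD1 is the DNA-binding partner of the co-activators YAP and TAZ, effectors of the Hippo pathway, which Schwann cells need to sort and myelinate axons. NR2F2 (COUP-TFII) is an orphan nuclear receptor that can itself pair with retinoid X receptors. YY1 is a zinc finger protein found at many promoters and enhancers, and it is required for myelination by Schwann cells. H3K27ac marks active promoters and enhancers.

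RXRG and TEAD1 shared a minority of their sites. Of the TEAD1 peaks, 5769 of 26404 (21.8%, with a 95% Wilson interval from 21.4 to 22.4%) met RXRG, that is, overlapped one of its peaks by 1 bp or more. Of the RXRG peaks, 5912 of 47935 (12.3%, 12 to 12.6%) met TEAD1. The overlapping pairs had a median of 200 bp in common (quartiles 145 and 291 bp), so that most were more than a touch of peak edges. RXRG peaks were narrow, with a median of 184 bp against 302 bp for TEAD1, and the RXRG peaks that met TEAD1 were wider than those that did not (315 against 177 bp). Across 4 width classes of RXRG peaks of about equal number, the share with TEAD1 went from 3.82% in the narrowest to 29.4% in the widest. For TEAD1 peaks the same division gave 15.4% and 29.0%. A wide peak meets any list more readily, and the part of width in these shares was not tested.

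Shared sites lay almost all in acetylated chromatin. Of the TEAD1 peaks that met RXRG, 95.9% touched H3K27ac, against 71.0% of those that did not meet it. In H3K27ac peaks, 27.4% of TEAD1 peaks met RXRG and 25.1% of RXRG peaks met TEAD1. Outside H3K27ac the shares were 3.76% (234 of 6222 TEAD1 peaks) and 0.942% (239 of 25377 RXRG peaks). The shares from either side were thus close within acetylated regions and both were lower outside them.

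The presence of NR2F2 at the TEAD1 peak went with most of the sharing. With NR2F2, 50.3% of TEAD1 peaks met RXRG (5050 of 10044, 49.3 to 51.3%), and without it 4.4% did (719 of 16360, 4.09 to 4.72%). With RXRG peaks extended by 500 bp on each side the shares were 57.8% and 9.21%, and by the TEAD1 midpoint 36.7% and 2.24%. TEAD1 peaks with NR2F2 were wider (median 350 against 276 bp), but the contrast was present in each of the 4 width classes of TEAD1 peaks. The shares with NR2F2 ran from 46.5% to 53.7% over these classes, and those without it from 4.11% to 5.34%. For RXRG peaks the shares with TEAD1 were 34.5% with NR2F2 and 2.18% without it. Here too the contrast was present by width. The shares were 22.0% against 1.25% in the narrowest class of RXRG peaks and 43.7% against 5.66% in the widest. Each factor was also more frequent in acetylated regions that held NR2F2. RXRG lay in 50.7% of such regions, whether or not TEAD1 was there, but in only 10.1% of regions lacking NR2F2. For TEAD1 the values were 38.1% and 12.4%. The part of these bases in the contrasts was not tested.

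Company with YY1 was unequal between the 2 lists. Among acetylated TEAD1 peaks with neither NR2F2 nor YY1, 2.32% met RXRG (49 of 2112). With YY1 alone the share was 6.94% (610 of 8789), with NR2F2 alone 45.1% (394 of 873) and with both 53.3% (4482 of 8408). The shares of TEAD1 peaks thus differed more by NR2F2 than by YY1. Acetylated RXRG peaks differed by both factors: 0.696% of those with neither met TEAD1 (45 of 6468), 19.6% with YY1 alone (609 of 3103), 9.04% with NR2F2 alone (398 of 4404) and 53.8% with both (4621 of 8583). With NR2F2 and no YY1, the share was thus low from the side of RXRG and high from that of TEAD1. The counts of shared peaks were similar, 398 and 394, over unequal totals of 4404 and 873. Of the H3K27ac peaks with NR2F2 only, 7.16% held TEAD1 and 35.5% RXRG, so the 2 shares also differ in their base. In all, 79.3% of the TEAD1 peaks that met RXRG carried both NR2F2 and YY1, and 1.73% carried neither. Among the TEAD1 peaks that did not meet RXRG, 20.2% carried both, 28.7% neither and 47.1% YY1 alone.

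Outside H3K27ac the shares for TEAD1 peaks were lower and again higher with NR2F2. RXRG was met by 28.0% of those with NR2F2 and YY1 (93 of 332) and by 18.8% of those with NR2F2 alone (81 of 431). It was met by 0.578% of those with YY1 alone (9 of 1556) and 1.31% of those with neither (51 of 3903). Most TEAD1 sites with RXRG outside acetylated regions were thus NR2F2 sites as well.

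**Figure D1:**
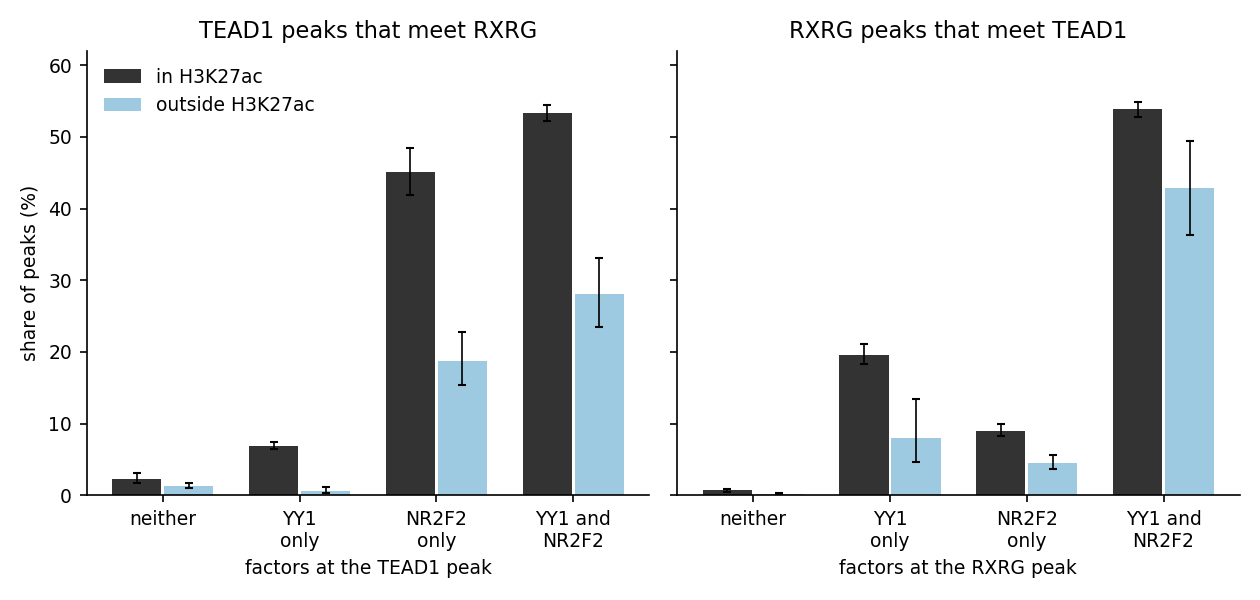
Share of TEAD1 peaks that meet RXRG (left) and of RXRG peaks that meet TEAD1 (right), in percent, by the other factors at the peak. Dark bars are peaks in H3K27ac, light bars peaks outside it, and error bars are 95% Wilson intervals. TEAD1 peaks separate by NR2F2, from 2.32% and 6.94% without it to 45.1% and 53.3% with it in H3K27ac, whereas RXRG peaks reach 53.8% only with both factors.

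The distance between midpoints showed the scale of the association. RXRG midpoints lay within 500 bp of TEAD1 midpoints at 0.261 per kb, against 0.0268 per kb at 100 to 200 kb, a ratio of 9.76 (9.53 to 10.0). The density fell to 0.0384 per kb at 1000 to 2000 bp and 0.0281 per kb at 2000 to 5000 bp. Around the same TEAD1 peaks the ratio was 17.7 for NR2F2 and 28.8 for YY1. RXRG was thus the least concentrated of these 3 at TEAD1 sites. The reference at 100 to 200 kb takes in chromatin with and without acetylation, whereas 76.4% of TEAD1 and 47.1% of RXRG peaks touched H3K27ac. For NR2F2 and YY1 peaks the shares were 65.4% and 86.4%. The 3 ratios thus followed the order of these shares, and the part of acetylation in that order was not tested. The density ratios here and below therefore include any common preference for acetylated chromatin. Odds ratios over H3K27ac peaks compare acetylated regions only, but can still include a common preference for wide ones, in which both factors were more frequent.

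Around TEAD1 peaks the RXRG density followed NR2F2. The ratio was 19.4 (18.8 to 19.9) for TEAD1 peaks with NR2F2 and YY1 and 18.3 (16.7 to 19.9) with NR2F2 alone. It was 3.59 (3.37 to 3.82) with YY1 alone. For the 6015 TEAD1 peaks with neither it was 1.3 (1.12 to 1.51), and for those of them in H3K27ac 1.82 (1.49 to 2.23). In this class the density within 100 bp, 0.0432 per kb, was near that at 500 to 1000 bp, 0.0357 per kb. TEAD1 peaks that lack both factors therefore had only a slight excess of RXRG at the site. How far these ratios follow the frequency of RXRG at NR2F2 sites in general was not tested.

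**Figure D2:**
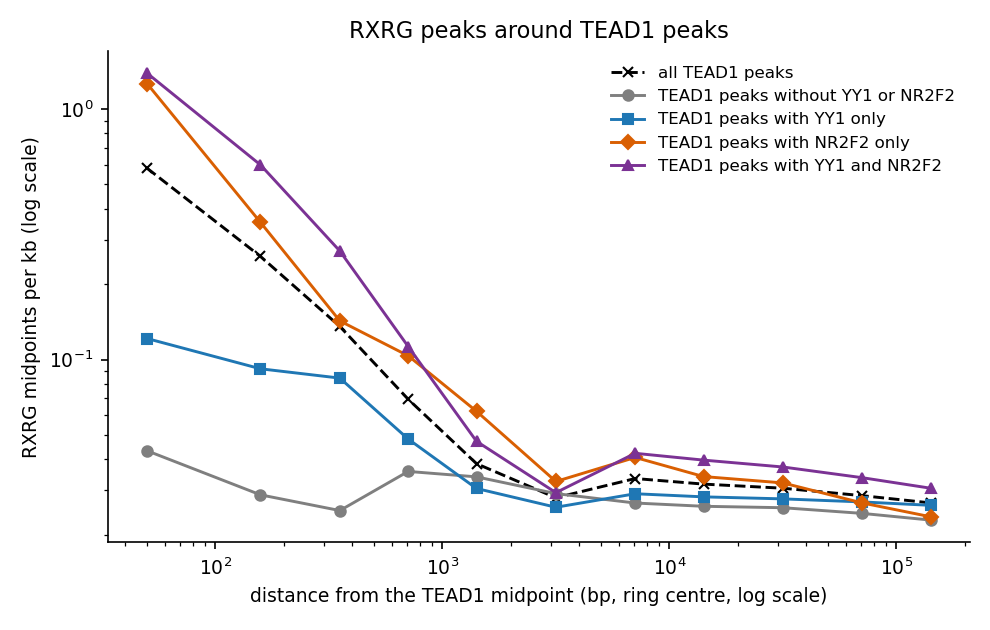
Density of RXRG midpoints (per kb, log scale) in rings around TEAD1 midpoints (distance in bp, log scale, each ring drawn at its geometric centre and the innermost at 50 bp), for all TEAD1 peaks (dashed) and for 4 classes by YY1 and NR2F2 at the TEAD1 peak. The classes with NR2F2 exceed 1 RXRG midpoint per kb within 100 bp, while the class with neither stays between 0.0229 and 0.0432 per kb at all distances.

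Acetylated regions were then taken as units. Of the 99514 H3K27ac peaks, 20.5% held RXRG, 19.0% held TEAD1, and 6987 held both. TEAD1 was in 34.3% of the regions with RXRG (33.6 to 34.9%) and in 15.0% of those without it (14.8 to 15.3%). The odds ratio was 2.95, with a Woolf interval of 2.84 to 3.05, and it was above 1 on all 21 placed chromosomes, from 2.29 on chromosome 8 to 3.87 on chromosome 19. Over all acetylated regions the 2 factors therefore went together. Regions with both were also richer in the other factors: 79.2% of them held NR2F2 and YY1, against 25.1% of the regions with RXRG without TEAD1, 28.1% of those with TEAD1 without RXRG and 2.88% of those with neither.

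Within regions of like company the association was weaker or turned. In the 57560 H3K27ac peaks without YY1 or NR2F2, TEAD1 was in 1.72% of the regions with RXRG (81 of 4709) and in 2.87% of the others, an odds ratio of 0.591 (0.472 to 0.741). Over all regions of this group the share with TEAD1 was 2.78% and that with RXRG 8.18%. In the 16539 regions with YY1 only, TEAD1 was in 34.9% with RXRG and 48.3% without it, an odds ratio of 0.575 (0.528 to 0.625), where 46% of the group held TEAD1 and 16.8% RXRG. In both groups without NR2F2, TEAD1 was thus less frequent where RXRG was present.

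The odds ratio lay above 1 in the regions with NR2F2 only, and its interval held 1 in those with both factors. Among the 11243 regions with NR2F2 only, TEAD1 was in 9.99% of those with RXRG and in 5.60% of the others, an odds ratio of 1.87 (1.62 to 2.16), where 7.16% of the group held TEAD1 and 35.5% RXRG. Among the 14172 regions with YY1 and NR2F2 it was in 62.2% and 63.4%, an odds ratio of 0.953 (0.888 to 1.02), where 62.7% held TEAD1 and 62.8% RXRG. The odds ratio with NR2F2 only was 3.17 times that with neither (2.42 to 4.14), and the one with both factors was 1.66 times that with YY1 only (1.49 to 1.85). That with YY1 only was 0.971 times that with neither (0.763 to 1.24), an interval that holds 1. The one with both factors was 0.509 times that with NR2F2 only (0.434 to 0.598). Without regard to region width, the odds ratio thus differed by NR2F2 with and without YY1, and by YY1 where NR2F2 was present. No difference by YY1 was detected where NR2F2 was absent. The difference by YY1 where NR2F2 was present changed direction with H3K27ac width. In the narrowest of 4 width classes the odds ratio was 3.03 with both factors and 1.77 with NR2F2 only. It was 1.84 and 2.03, 1.19 and 1.76, and 0.710 and 1.31 in the wider classes.

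Combined over the 4 groups the Mantel-Haenszel odds ratio was 0.840 (0.80 to 0.882), on the other side of 1 from the value over all regions. This is an average over groups on both sides of 1, from 0.575 to 1.87, and describes no single group. The combined odds ratio was 1.22 over YY1 alone and 1.66 over NR2F2 alone, so that holding either factor by itself left it above 1. By chromosome, the odds ratio in regions with YY1 only was below 1 on all 21, from 0.364 to 0.919, with 15 intervals wholly below 1. With NR2F2 only it was above 1 on 20 of 21, with 7 intervals wholly above 1 and 0.974 on chromosome 12. In regions without YY1 or NR2F2 it was below 1 on 14 of the 16 chromosomes that gave a value, with 2 intervals wholly below 1, and the other chromosomes had 0 regions with both RXRG and TEAD1. In those with both factors it was below 1 on 12 of 21, with 3 intervals wholly below 1 and 1 wholly above.

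**Figure D3:**
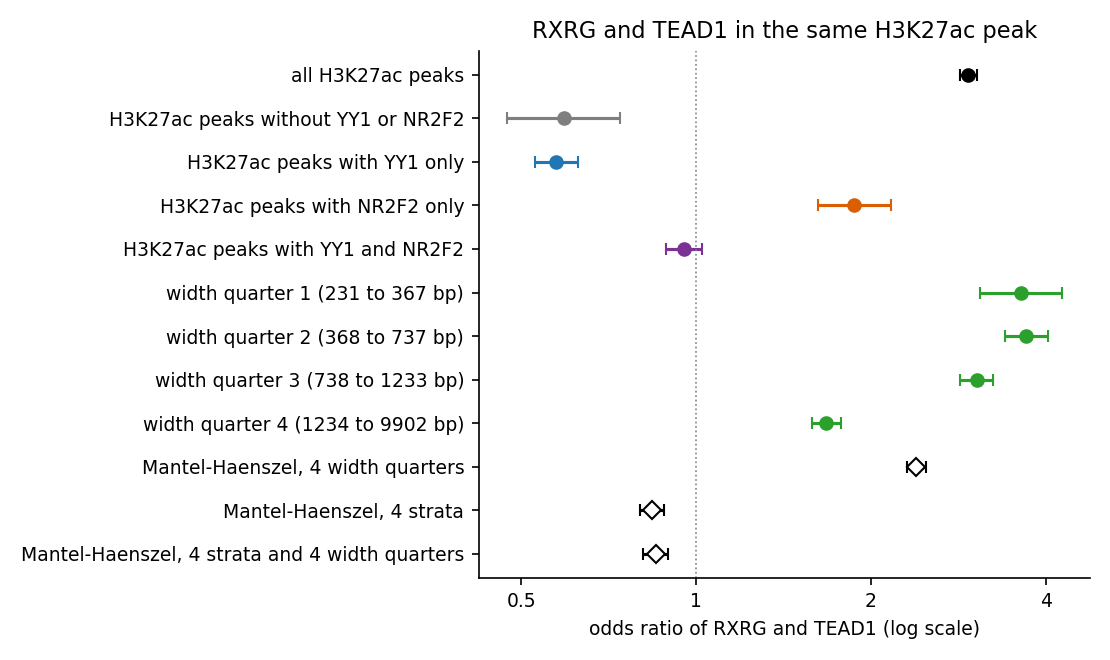
Odds ratio of RXRG and TEAD1 in the same H3K27ac peak (log scale), over all peaks, by YY1 and NR2F2, by class of H3K27ac width and combined (open diamonds), with 95% intervals (Woolf, or Robins-Breslow-Greenland for the combined values). The value over all regions, 2.95, and those of every width class lie above 1, while the values without NR2F2 and the value combined over the 4 groups, 0.840, lie below it. The last averages groups on both sides of 1.

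The width of the region did not change the side by itself. Over 4 classes of H3K27ac peaks of about equal number, the odds ratio was 3.62 (3.08 to 4.27) for regions of 231 to 367 bp and 3.71 (3.40 to 4.04) for 368 to 737 bp. It was 3.04 (2.85 to 3.25) for 738 to 1233 bp and 1.68 (1.59 to 1.77) for 1234 to 9902 bp. The narrowest class was thus 2.16 times the widest (1.82 to 2.57). From the narrowest class to the widest, the shares of regions with TEAD1 were 3.35%, 10.2%, 19.8% and 42.6%. Those with RXRG were 8.95%, 20.7%, 25.6% and 26.7%. The frequency of TEAD1 thus went up through the widest class, where that of RXRG had levelled.

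Width and company together separated the regions further. In regions with YY1 and NR2F2, the odds ratio fell by class of width, from 3.03 (2.08 to 4.41) through 1.84 and 1.19 (1.05 to 1.35) to 0.710 (0.633 to 0.795). The value of 1.19 was 1.18 (0.994 to 1.4) with wider peaks and 1.13 (0.999 to 1.28) with regions extended by 500 bp. The value over the group thus took in opposite directions. In the narrowest of these regions TEAD1 was in 56.1% with RXRG and 29.6% without it. In the widest it was in 72.1% with RXRG and 78.5% without it. The narrowest class was 4.27 times the widest (2.89 to 6.32). The value for this group, 0.953, became 1.07 (0.993 to 1.15) when combined over the 4 width classes and 1.14 (1.06 to 1.23) over 10 classes, a division chosen after the data were seen. With peaks wider than their list's median it was 0.763 (0.693 to 0.840), and 0.720 (0.146 to 3.54) in the narrowest class.

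The other 3 groups had values on 1 side of 1 in each of the 4 width classes, though not in each of 10. In regions with YY1 only the odds ratio was 0.674, 0.421, 0.553 and 0.552 from the narrowest class to the widest, and in those without YY1 or NR2F2 0.660, 0.387, 0.444 and 0.533. The intervals of the narrowest class held 1 in both, with 8 and 9 regions that hold RXRG and TEAD1, and counting only peaks whose midpoint lay inside the region gave 1.06 and 1.73 there. With regions extended by 500 bp the values there were 0.468 (0.235 to 0.931) and 0.343 (0.188 to 0.626). Over 10 classes, the narrowest gave 1.02 (0.104 to 10.1) with YY1 only and 1.13 (0.410 to 3.11) without YY1 or NR2F2. In regions with NR2F2 only the values were 1.77, 2.03, 1.76 and 1.31, the last with an interval of 0.894 to 1.93, and the widest of 10 classes gave 0.736 (0.385 to 1.41). No difference between the narrowest and the widest class was detected in these groups, the ratios being 1.22 (0.544 to 2.74), 1.24 (0.592 to 2.60) and 1.35 (0.819 to 2.21) in the same order.

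**Figure D4:**
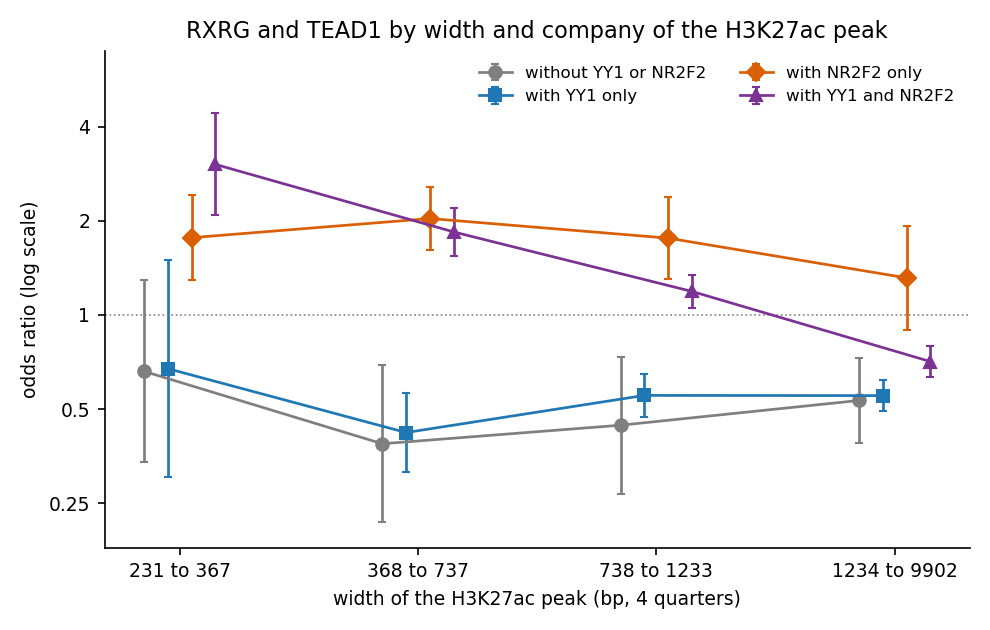
Odds ratio of RXRG and TEAD1 (log scale) by class of H3K27ac width (bp), for regions divided by YY1 and NR2F2, with 95% Woolf intervals. Regions with both factors go from 3.03 in the narrowest class to 0.710 in the widest, while in these 4 classes the other groups have values above 1 (NR2F2 only) or below 1 (YY1 only, or neither).

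Factors that shared a region did not always share a site. Of the 6987 regions with both, RXRG and TEAD1 peaks overlapped in 76.0% (75 to 77%), and the nearest midpoints were a median of 144 bp apart. In comparison, RXRG and NR2F2 overlapped in 92.1% of the 12886 regions they shared, and TEAD1 and YY1 in 98.2% of 16488. The overlap of RXRG with TEAD1 was lower in each of the 4 width classes, and in the widest it was 62.6%, against 83.9% and 97.9%. In the narrowest, where peaks can hardly miss each other, it was 97.6%, against 98.7% and 99.5%, and its interval (94.5 to 99.0%) overlapped theirs.

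Spacing also went with NR2F2. The peaks overlapped in 84.0% (80.0 to 87.2%) of the 399 shared regions with NR2F2 only and in 81.2% (80.2 to 82.2%) of the 5535 with YY1 and NR2F2. They overlapped in 46.8% (43.7 to 49.9%) of the 972 with YY1 only and in 33.3% (24.0 to 44.1%) of the 81 with neither. The median distance between the nearest midpoints was 74 bp, 130 bp, 327.5 bp and 426 bp in that order, without regard to region width. In the widest class of regions it was 266.5 bp, 214 bp, 496 bp and 679 bp. In regions of 368 to 737 bp it was 71 bp, 53 bp, 119 bp and 170 bp. Within the widest class the overlaps were 48.1% with NR2F2 only, 70.2% with both, 35.3% with YY1 only and 15.9% with neither. The interval with NR2F2 only, on 54 regions, was 35.4 to 61.2% and overlapped that with YY1 only, 31.7 to 39.0%, so at this width those groups were not told apart.

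A TEAD1 peak that did not itself meet RXRG could still have it elsewhere in its acetylated region, and this too went with NR2F2. Among such peaks, RXRG lay elsewhere in the region for 10.2% (9.0 to 11.6%) of those with neither YY1 nor NR2F2 at the site and for 11.9% (11.2 to 12.6%) of those with YY1 only. It did so for 23.4% (19.8 to 27.4%) of those with NR2F2 only and 22.3% (21.1 to 23.7%) of those with both. The contrast by NR2F2 thus reached past the site, though it was smaller there than at the site. The base differs too: of all H3K27ac peaks, RXRG was in 8.18% with neither factor, 16.8% with YY1 only, 35.5% with NR2F2 only and 62.8% with both. Seen from RXRG peaks that did not meet TEAD1, the shares with TEAD1 elsewhere in the region were 10.7% with neither, 26.0% with YY1 only, 6.67% with NR2F2 only and 23.4% with both. On this side the shares were higher with YY1, as was the base: TEAD1 was in 2.78%, 46%, 7.16% and 62.7% of all H3K27ac peaks in that order. The part of these bases in the shares was not tested. The shares from both sides were not divided by region width, and a wider region has more room for a second peak. Median widths of H3K27ac peaks were 1237 bp with YY1 only and 1182 bp with both factors. They were 518 bp with NR2F2 only and 536 bp with neither. The part of width in these shares was not tested.

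**Figure D5:**
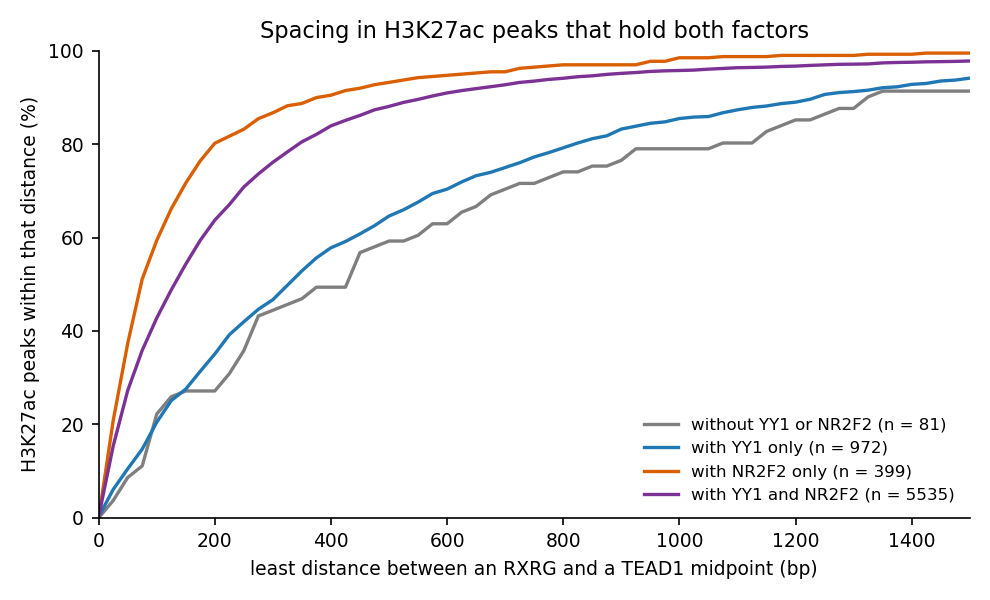
Cumulative share (%) of the H3K27ac peaks that hold both factors, by the least distance between an RXRG and a TEAD1 midpoint (bp), divided by YY1 and NR2F2. The curves with NR2F2 rise early, with 80.2% (NR2F2 only) and 63.7% (both) within 200 bp, against 35.1% with YY1 only and 27.2% with neither. The curves are not divided by region width, in which the groups differ.

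For comparison, 2 other pairs of the lists were divided in the same way, and both had odds ratios above 1 in each of their 4 groups. NR2F2 with TEAD1, divided by YY1 and RXRG, gave 2.00 without either, 1.85 with YY1 only, 6.34 with RXRG only and 3.08 with both. RXRG with YY1, divided by TEAD1 and NR2F2, gave 2.83, 2.75, 3.31 and 1.68 for neither, TEAD1 only, NR2F2 only and both. All of these intervals lay above 1. These pairs share a list with RXRG and TEAD1, and the difference between pairs was not tested.

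The longest shared stretch was 2000 bp at chromosome 4, 6890400 to 6892399 (build rn5), which overlapped an H3K27ac peak of 1791 bp and had YY1 and NR2F2 at the site. The next were 1750 bp at chromosome 14, 4964431 to 4966180, and 1652 bp at chromosome 4, 209837453 to 209839104, the latter also with nerve SREBP1. The fourth was 1216 bp at chromosome 4, 142085871 to 142087086, with SREBP1, and the fifth 1116 bp at chromosome 2, 211292014 to 211293129. All 5 touched H3K27ac and had YY1 and NR2F2 at the site, and the first 2 ran past the edge of the acetylated region. In regions without YY1 or NR2F2 the longest were 257 bp at chromosome 1, 285515408 to 285515664, 254 bp at chromosome 3, 171161249 to 171161502, and 183 bp at chromosome 10, 76557817 to 76557999. The peaks overlapped in only 27 such regions, against 4496 with YY1 and NR2F2. A longest value depends on the number compared, and typical lengths by group were not compared. Outside H3K27ac the longest was 496 bp at chromosome 9, 12176426 to 12176921, with NR2F2 at the site. It was followed by 396 bp at chromosome 1, 56926523 to 56926918, and 396 bp at chromosome 2, 280369657 to 280370052, both with NR2F2 and YY1.

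Wide acetylated regions with a single member of the pair were found as well. The widest with RXRG but no TEAD1 spanned 7405 bp at chromosome 17, 808716 to 816120, and held 1 RXRG, 1 NR2F2 and 2 YY1 peaks. The second, 7070 bp at chromosome X, 110849665 to 110856734, held 1 RXRG and 1 NR2F2 peak and no YY1, and the third was 5103 bp at chromosome 3, 114323201 to 114328303. The widest with TEAD1 but no RXRG spanned 7862 bp at chromosome 16, 7701460 to 7709321, with 2 TEAD1 and 3 YY1 peaks and no NR2F2. Next came 7799 bp at chromosome 9, 37839259 to 37847057, with 2 TEAD1, 3 YY1 and 2 NR2F2 peaks, and 7434 bp at chromosome 7, 12946625 to 12954058, with 3 TEAD1, 2 YY1 and 1 NR2F2 peaks. Genes and sequences at these positions were not analysed here.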

How the data were processed

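The data were 6 peak lists, 1 per target, among the 7 samples of the series. The authors deposited chromosome, start and end of each peak, and per the submitters' processing notes the build was rn5 and the tools included MACS2, Bowtie2, deepTools, bedtools and bcl2fastq 2.20.0.422. Their roles, the peak thresholds and any control are details not given in the sources used here. Besides positions, the SREBP1 list carries a deposited score, the same in every peak and not used. RXRG, TEAD1 and YY1 lists hold no peak on unplaced scaffolds. Mitochondrial peaks were dropped, and peaks were called shared at 1 bp or more.

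Shares have 95% Wilson intervals and odds ratios over H3K27ac peaks Woolf or Robins-Breslow-Greenland intervals. They leave out the dependence of neighbouring peaks. Alternatives were another overlap rule, fixed 200 bp windows, extension by 500 bp, wider peaks, joined regions, placed chromosomes and logistic models. Positions are named by rank of shared length or region width and count from 1. The members, divisions and comparisons were chosen with earlier results of these data known. The scripts were tested on simulated data. Computations ran in Python 3.11.15 with SciPy 1.17.1, NumPy 2.4.6, Matplotlib 3.10.9 and, for the logistic models, statsmodels 0.14.6.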

Additional observations from a re-analysis of the deposited data

Results flagged for a closer look

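Both lists held peaks on the mitochondrial genome, which the comparisons left out. There were 16 mitochondrial RXRG peaks and 9 mitochondrial TEAD1 peaks, and 8 of the 16 RXRG peaks met a TEAD1 peak. The NR2F2 list held 13 such peaks, YY1 9, H3K27ac 2 and SREBP1 0. What gave rise to them was not tested.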

How the results depend on the processing

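The 39 results were recomputed under 221 alternatives for odds ratios and 67 for shares and densities. Of the odds ratios, 208 kept their direction and whether the interval held 1. That over all regions became 0.852 (0.809 to 0.896) in a logistic model with YY1, NR2F2, SREBP1 and width, and it stayed at 2.49 with width alone. In regions with YY1 and NR2F2, where the value was 0.953, taking only peaks above their list's median width gave 0.763, below 1, and holding 10 classes of region width, chosen after the data were seen, gave 1.14, above 1. In single width classes, midpoints inside the region gave 1.73 without YY1 or NR2F2 and 1.06 with YY1 only, both in the narrowest class. There the wider peaks gave 1.09 without YY1 or NR2F2 and 0.720 with both, and all 4 of these intervals held 1. With YY1 only in that class, the wider peaks gave no odds ratio, and this case is not among the alternatives counted. In 4 further cases an interval that had not held 1 came to hold it: wider peaks and regions extended by 500 bp in the third width class with both factors (1.18 and 1.13), and the midpoint and 50% rules in the second class without YY1 or NR2F2 (0.561 and 0.557). Regions extended by 500 bp gave 0.468 with YY1 only and 0.343 without YY1 or NR2F2 in the narrowest class. Those 2 intervals lay wholly below 1, where they had held 1 before. The cause of these changes was not tested.

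Of the 67 alternatives for shares and densities, 52 moved outside the interval of the first value and 15 stayed within it. Restriction to placed chromosomes could not move them, as the RXRG and TEAD1 lists hold no other peaks. The share of TEAD1 peaks with RXRG was 18.6% when the overlap had to cover 50% of the shorter peak and 15.4% by the TEAD1 midpoint. It was 17.3% with both lists at 200 bp, 27.7% with RXRG extended by 500 bp and 21.3% among wider peaks. For RXRG peaks with TEAD1 the first 4 of these rules, with the lists exchanged, gave 10.4%, 9.36% by the RXRG midpoint, 9.55%, and 16.1% with TEAD1 extended. The density ratio within 500 bp was 16.2 among wider peaks and 11.7 for TEAD1 peaks in H3K27ac. Overlap in regions with both was 64.8% by the 50% rule, 60.5% at 200 bp and 81.9% among wider peaks. No paired analysis was possible because RXRG and TEAD1 were each measured in 1 sample. How depth and the peak threshold bear on these values was not tested.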

Other observations

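TEAD1 lay closer to the centre of wide acetylated regions than RXRG did. In H3K27ac peaks of 1234 bp or more, the median distance of a midpoint from the centre was 0.333 of the way to the edge for the 11374 TEAD1 peaks and 0.454 for the 7888 RXRG peaks. YY1, at 0.332, was near TEAD1, and NR2F2, at 0.401, lay between. In these regions TEAD1 was nearer the centre without RXRG (0.307) than with it (0.385), whereas RXRG was nearer the centre with TEAD1 (0.419) than without it (0.492). In regions of 368 to 737 bp both were nearer the centre in company, TEAD1 at 0.218 against 0.401 and RXRG at 0.170 against 0.321. At 738 to 1233 bp RXRG was at 0.283 against 0.396, but TEAD1 did not differ, at 0.342 against 0.343. With or without the other factor, TEAD1 and RXRG were at 0.343 and 0.348 in that class. They were at 0.292 and 0.2805 for 368 to 737 bp and at 0.296 and 0.272 in the narrowest class, where TEAD1 was not the nearer. These are medians without an interval.

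Nerve SREBP1 divided the regions with YY1 only. There the odds ratio of RXRG and TEAD1 was 0.458 (0.409 to 0.513) in the 10865 regions without SREBP1 and 0.755 (0.662 to 0.861) in the 5674 with it. In regions with YY1 and NR2F2 it was 0.958 without SREBP1 and 1.03 with it, both intervals holding 1. Among regions without YY1, the odds ratio with NR2F2 was 0.796 (0.309 to 2.05) in the 178 with SREBP1 and 1.92 (1.66 to 2.22) in the others. Without NR2F2 it was 0.392 (0.182 to 0.842) in the 3008 with SREBP1 and 0.637 (0.503 to 0.807) in the others, the opposite order to that with YY1 only, with intervals that overlap. Both groups with SREBP1 had 7 regions with RXRG and TEAD1. The SREBP1 list comes from another tissue, and this division was chosen after the data were seen.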
